A study of Mus musculus with 12 samples.

Results

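The hair keratin-associated protein genes (Krtap genes) were examined in mouse dermis, the fibroblast-rich layer beneath the epidermis. Members were the protein-coding genes whose symbol begins with Krtap, matched by gene ID, which gave 57 of the 55401 genes in the deposited table. The 1 Krtap pseudogene was left out. Genes of the same family that carry only a clone or Gm name were not members.

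All mice were C57BL/6 and 6 weeks old. RNA sequencing was done on dermis from wild-type mice (WT) and from mice without Cthrc1 (Cthrc1-/-), a gene for a secreted protein with collagen triple helix repeats, on day 0 and on day 7 of a wounding experiment. Genotype and day made 4 groups, each with 3 biological replicates. How the Cthrc1-/- allele was made, the hair cycle stage of the skin, the sex of the mice and whether the samples came from the same animals are not given in the sources used here.

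Keratin-associated proteins are small, mostly single-exon gene products of the hair shaft. They fill the matrix between the keratin filaments of the cortex and build up the cuticle, and cross-linking of their cysteines to keratins gives hair its rigidity. The high sulfur and ultra-high sulfur proteins are rich in cysteine, whereas the high glycine-tyrosine proteins are rich in glycine and tyrosine. The genes are switched on late in the differentiation of hair shaft cells, after many of the hair keratins, during the growth phase of the follicle (anagen).

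By subfamily number, 17 members of 11 subfamilies were high sulfur genes (Krtap1, 2, 3, 11, 13, 14, 15, 16, 24, 26 and 27), with 8 on chromosome 11 and 9 on chromosome 16. The 20 ultra-high sulfur genes (Krtap4, 5, 9, 10, 12 and 17) lay on chromosome 11 (12 genes), chromosome 7 (5 genes) and chromosome 10 (3 genes). All 15 high glycine-tyrosine genes (Krtap6, 7, 8, 19, 20, 21 and 22) lay on chromosome 16. The other 5 members (Krtap28, 29 and 31) were not placed in a class. Cysteine took a median of 12.7% of codons in the high sulfur class, 37.3% in the ultra-high sulfur class and 8.05% in the high glycine-tyrosine class. Glycine and tyrosine together took a median of 11.5%, 4.45% and 63.3% of codons. In the high sulfur class, 7 of 17 genes had more glycine and tyrosine codons than cysteine codons, and in Krtap16-3 they took 59.3% of codons.

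The promoters below are shown because they belong to members on which the results turn: the most abundant high glycine-tyrosine gene (Krtap8-1), another gene of that class with a different pattern (Krtap6-1), a called gene on each of the 2 large clusters (Krtap11-1 and Krtap3-1), the ultra-high sulfur gene with the highest level in WT day 0 (Krtap17-1) and an abundant ultra-high sulfur gene that was at 0 there (Krtap9-3). Each is the 120 bases before the annotated start, 5′ to 3′ on the strand of the gene, from RefSeq on GRCm38.p6. Capitals mark TATAAA, the letters of the TATA box.
Krtap8-1: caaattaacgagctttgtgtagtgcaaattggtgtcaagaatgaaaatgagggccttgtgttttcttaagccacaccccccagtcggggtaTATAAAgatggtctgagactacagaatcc
Krtap6-1: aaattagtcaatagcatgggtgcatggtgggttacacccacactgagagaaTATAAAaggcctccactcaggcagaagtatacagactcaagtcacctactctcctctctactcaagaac
Krtap11-1: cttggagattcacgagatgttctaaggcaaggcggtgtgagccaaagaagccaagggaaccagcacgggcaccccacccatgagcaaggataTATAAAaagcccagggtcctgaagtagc
Krtap3-1: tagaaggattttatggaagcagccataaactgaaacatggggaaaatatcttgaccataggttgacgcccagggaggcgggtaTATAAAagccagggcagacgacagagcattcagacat
Krtap17-1: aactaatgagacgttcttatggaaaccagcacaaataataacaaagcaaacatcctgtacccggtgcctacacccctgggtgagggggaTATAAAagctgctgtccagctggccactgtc
Krtap9-3: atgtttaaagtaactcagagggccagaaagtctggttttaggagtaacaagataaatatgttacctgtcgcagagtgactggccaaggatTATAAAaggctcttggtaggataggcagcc
They lie at chr16:89487953-89488072 (minus strand), chr16:89031579-89031698 (plus strand), chr16:89571184-89571303 (minus strand), chr11:99566631-99566750 (minus strand), chr11:99993995-99994114 (minus strand) and chr11:99598107-99598226 (minus strand).

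Promoter entries were found for 51 of the 57 members, with Krtap7-1 among the 6 without one. TATAAA, read on both strands over 250 bases before to 50 after the start, occurred in 42 of 51 Krtap promoters (82.4%), against 13.6% of all 32851 promoters of the same length. On the strand of the gene and starting 20 to 40 bases before the start, it occurred in 31 of 51 (60.8%), against 1.99% of all promoters, and its first base then lay a median of 31 bases upstream. In Krtap6-1 the motif began 69 bases upstream. CTTTGA, the core letters of a Lef1/Tcf site on either strand, occurred in 15 of 51 Krtap promoters (29.4%) and in 16% of all promoters. It was present in 10 of 16 high sulfur, 1 of 17 ultra-high sulfur and 4 of 14 high glycine-tyrosine promoters. Neither motif can overlap the other, and a match is a description of the letters only.

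The libraries held between 48329668 and 76938132 counts. In the deepest and the shallowest library 3 counts, taken here as the floor, were 0.0390 and 0.0621 CPM (the count scaled to library depth), which covers counting error only. Cthrc1 had at least 1813 counts in every WT library and at most 15 in every Cthrc1-/- library. Counts of 4 were 3.16 to 4.05 times as frequent as the mean of counts of 3 and 5 in each library, so a low count is not a number of single fragments. The tissue label was checked on marker genes. The summed level of 7 dermal fibroblast genes ranged from 381 to 6668 FPKM (a level scaled to transcript length and library depth). That of 7 genes listed for epidermal keratinocytes ranged from 2247 to 9412 FPKM, so the libraries held keratinocyte as well as fibroblast RNA. Bulk libraries cannot tell fewer hair-forming cells from less Krtap RNA per cell.

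Krtap RNA was close to absent in WT day 0, high but very uneven in Cthrc1-/- day 0, and present at levels between these on day 7 in both genotypes. The 57 members summed to 5.15, 6.47 and 9.38 FPKM in WT day 0 replicates 1 to 3. They summed to 49.0, 2840 and 5067 FPKM in Cthrc1-/- day 0. The sums were 35.1, 685 and 183 FPKM in WT day 7 and 249, 11.2 and 1236 FPKM in Cthrc1-/- day 7. Every library outside WT day 0 was above every WT day 0 library, and no other pair of groups was separate. In each of those 3 groups 1 library lay far below the others: replicate 1 of Cthrc1-/- day 0, replicate 1 of WT day 7 and replicate 2 of Cthrc1-/- day 7. As a share of all counts, Krtap genes took at most 0.000877% in WT day 0 and up to 0.389% in Cthrc1-/- day 0. No member was at a count of 0 in all 12 libraries, and 7, 13 and 12 members exceeded 3 counts in WT day 0, against 36, 54 and 56 in Cthrc1-/- day 0. The numbers were 31, 54 and 46 in WT day 7 and 44, 27 and 55 in Cthrc1-/- day 7.

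**Figure D1:**
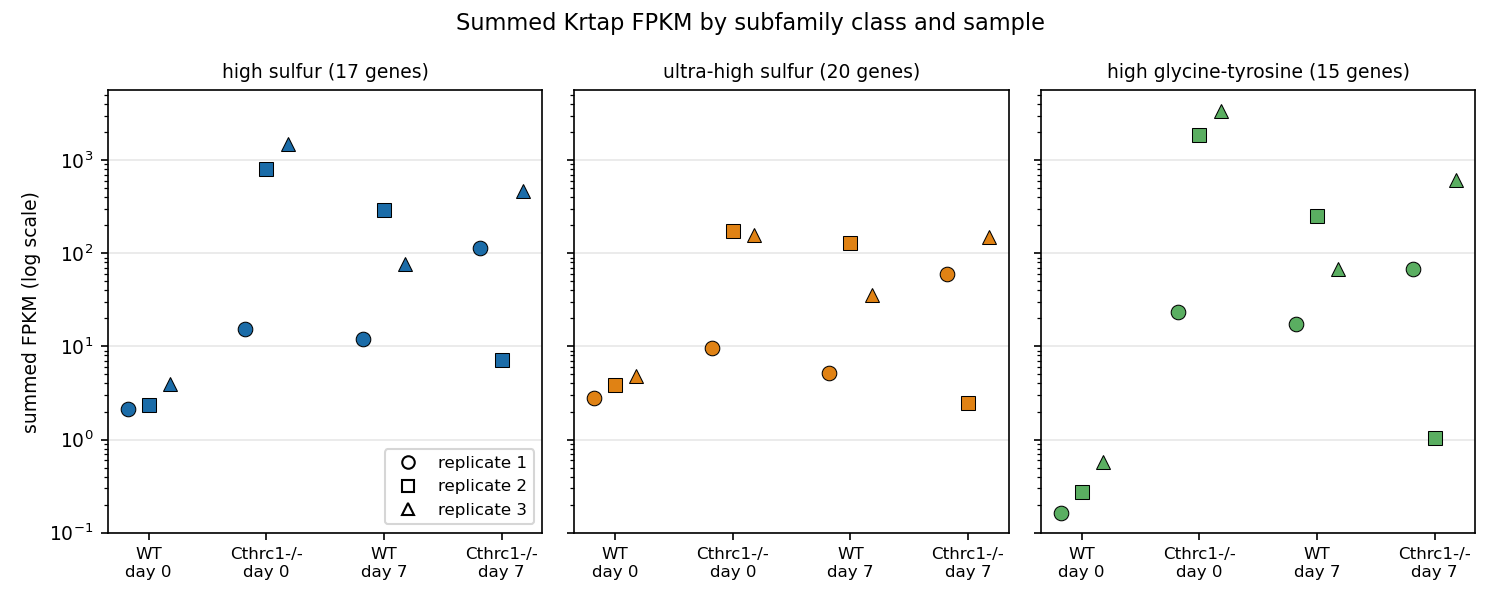
Summed FPKM (log axis) of the high sulfur, ultra-high sulfur and high glycine-tyrosine genes in each of the 12 libraries, 1 symbol per library and 1 symbol shape per replicate number. The 3 WT day 0 libraries lie lowest or nearly so in each panel, and the other groups each spread widely.

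On day 7 the members were mostly highest in 1 and the same library of a group. WT day 7 replicate 2 was the highest of its group for all 54 members with a count there. Cthrc1-/- day 7 replicate 3 was the highest of its group for 54 of 55. Cthrc1-/- day 0 replicate 1 was the lowest of its group for 54 of 57 members, while 20 members were highest in replicate 2 of that group and 37 in replicate 3. In WT day 0 the highest library was replicate 1, 2 or 3 for 3, 8 and 11 of the 22 members with a count. The peak over all 12 libraries fell in Cthrc1-/- day 0 replicate 3 for 25 members, in replicate 2 of that group for 18, in Cthrc1-/- day 7 replicate 3 for 10 and in WT day 7 replicate 2 for 4. Genes of 1 library share its RNA and its scaling, so these counts are not independent observations.

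**Figure D2:**
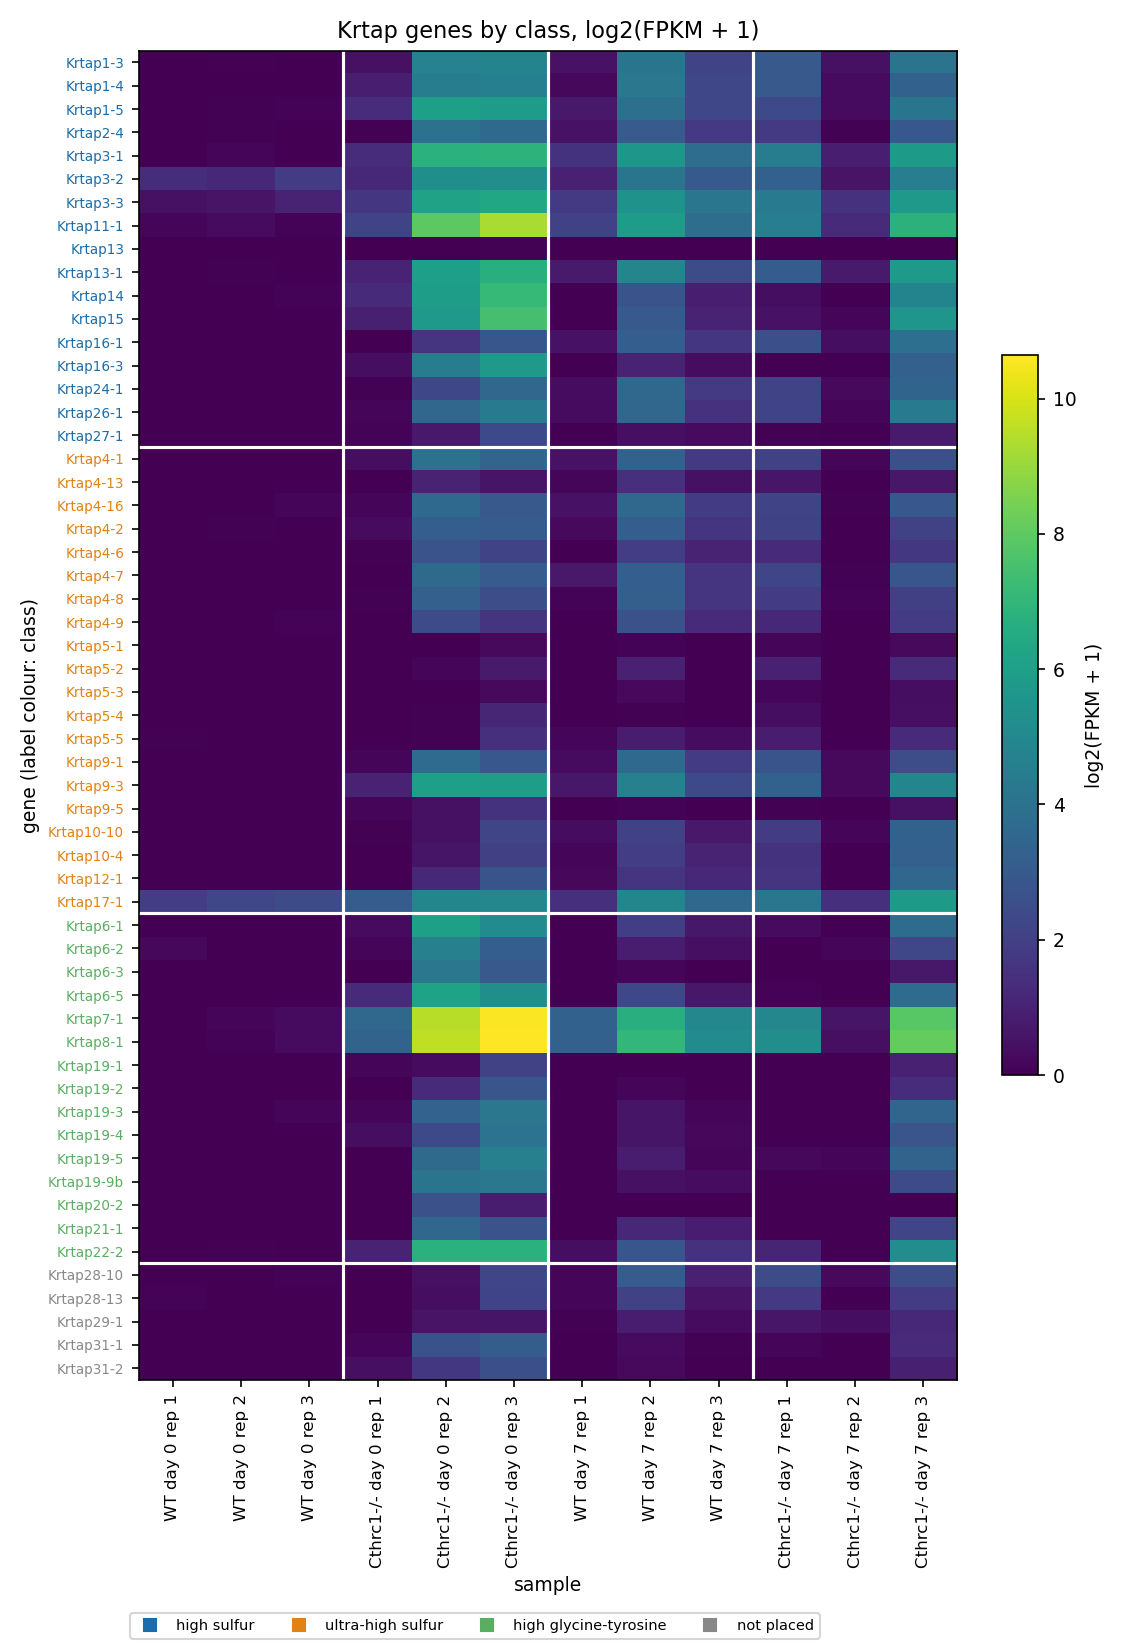
Level of each of the 57 Krtap genes (rows, grouped by class) in each of the 12 libraries (columns), as log2(FPKM + 1). The WT day 0 columns are dark apart from Krtap3-2, Krtap3-3 and Krtap17-1, and Krtap7-1 and Krtap8-1 are the brightest rows in Cthrc1-/- day 0 replicates 2 and 3.

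The hair shaft keratin and inner root sheath genes were low and high in much the same libraries. The 15 matched hair shaft keratin genes summed to 7.05 to 10.4 FPKM in WT day 0, and to 41.7, 1376 and 3299 FPKM in Cthrc1-/- day 0. They summed to 96.0, 539 and 327 FPKM in WT day 7 and 313, 31.5 and 873 FPKM in Cthrc1-/- day 7. Krtap FPKM per hair shaft keratin FPKM was 0.731, 0.799 and 0.903 in WT day 0, 1.17, 2.06 and 1.54 in Cthrc1-/- day 0, 0.365, 1.27 and 0.558 in WT day 7, and 0.795, 0.354 and 1.42 in Cthrc1-/- day 7. The ratio thus varied far less between libraries than the sums, and outside WT day 0 it was lowest in the library of each group in which the Krtap sum was lowest. The 9 inner root sheath genes, which mark the sleeve that moulds the growing hair, summed to 2.77 to 5.60 FPKM in WT day 0 and to 232, 4864 and 11695 FPKM in Cthrc1-/- day 0. In WT day 7 they summed to 1683, 4086 and 3786 FPKM and in Cthrc1-/- day 7 to 3776, 512 and 5374 FPKM.

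The dermal fibroblast sum ran the other way in Cthrc1-/- day 0, at 2555, 1394 and 381 FPKM in replicates 1 to 3, against 5066 to 6668 FPKM in WT day 0. It was 5449, 4982 and 3686 FPKM in WT day 7 and 3715, 2495 and 2295 FPKM in Cthrc1-/- day 7. None of the 7 fibroblast genes was at 0 in all libraries. The 4 genes listed for the bulge and companion layer of the follicle were not shown here to be particular to it. They summed to 2397 to 2532 FPKM in WT day 0 and to 1848, 1254 and 566 FPKM in Cthrc1-/- day 0. Krt15 made up most of that sum, and only Krt15 and Cd34 were lower in every Cthrc1-/- day 0 library. Krt75 had 39.7, 102 and 131 FPKM there, against 69.8 to 74.1 FPKM in WT day 0. Lgr5 had 3.47, 5.10 and 2.34 FPKM against 2.98 to 3.46 FPKM. The sum of 3 adipocyte genes was 60.5 to 85.5 FPKM in WT day 0 and 5.76 to 37.0 FPKM in Cthrc1-/- day 0, and that of 4 skeletal muscle genes was 202 to 473 FPKM and 44.2 to 184 FPKM. Each of these 4 sums was lower in every Cthrc1-/- day 0 library than in every WT day 0 library. They were lowest in replicate 3, where the Krtap sum was highest. Of the 34303 genes with a count, 12.5% were lower without overlap in this comparison. The sums of 2 other lists overlapped between the groups. The epidermal keratinocyte sum was 8356, 7602 and 3955 FPKM, against 7536 to 8288 FPKM in WT day 0. The sebaceous gland sum was 605, 435 and 229 FPKM, against 399 to 504 FPKM. The part of tissue make-up in the Krtap differences was not tested.

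Between genotypes on day 0, 7 Krtap genes were higher in Cthrc1-/- and none was lower: the high sulfur genes Krtap1-3, Krtap1-5, Krtap3-1, Krtap11-1 and Krtap13-1, and the high glycine-tyrosine genes Krtap7-1 and Krtap8-1. No ultra-high sulfur gene was called. A call means an adjusted p under 0.05 in edgeR's quasi-likelihood test, adjusted over all 14313 genes with a mean of at least 1 FPKM. Of the 57 members 43 were tested, namely 15 of 17 high sulfur, 13 of 20 ultra-high sulfur, 12 of 15 high glycine-tyrosine and 3 of 5 unplaced genes. The 7 calls are 16.3% of the 43, and over all genes tested 5.78% were called, 3.51% as higher. A member that passed this filter did so through the libraries in which it is high.

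Krtap8-1 (ENSMUSG00000059632, chromosome 16, 89487379 to 89487952, minus strand, GRCm38) encodes a small high glycine-tyrosine protein, with 47.5% glycine and tyrosine codons. Its level was 0, 0.0768 and 0.236 FPKM in WT day 0 and 9.33, 793 and 1591 FPKM in Cthrc1-/- day 0. The groups did not overlap, and Cthrc1-/- replicate 1 was far below the other two. The edgeR log2 change was 12.65 (SE 2.97, adjusted p = 0.0421), or, as levels, 0.10 ± 0.12 against 798 ± 791 FPKM (mean ± SD, n = 3). Krtap7-1 (ENSMUSG00000056706), the single gene of its subfamily, had 0, 0.142 and 0.225 FPKM in WT day 0 and 10.7, 712 and 1522 FPKM in Cthrc1-/- day 0. Its edgeR log2 change was 12.30 (SE 2.80, adjusted p = 0.0400). Together these 2 genes held 81.2% to 91.5% of the high glycine-tyrosine FPKM in Cthrc1-/- day 0.

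Among the high sulfur genes the most abundant was Krtap11-1 (ENSMUSG00000091212, chromosome 16, 89570176 to 89571183, minus strand). It had 0.137, 0.251 and 0.0692 FPKM in WT day 0 and 3.51, 250.2 and 623 FPKM in Cthrc1-/- day 0. Its edgeR log2 change was 10.58 (SE 2.40, adjusted p = 0.0399). Krtap3-1 (ENSMUSG00000047564, chromosome 11, 99566027 to 99566630, minus strand) had 0, 0.143 and 0 FPKM in WT day 0 and 1.54, 111 and 118 FPKM in Cthrc1-/- day 0. Krtap13-1, on chromosome 16, had 0, 0.0588 and 0 FPKM against 1.06, 63.5 and 99.7 FPKM. In all 3 genes the Cthrc1-/- libraries lay above the WT libraries, with replicate 1 lowest. The edgeR log2 change was 10.05 (SE 2.40, adjusted p = 0.0433) in Krtap3-1 and 10.78 (SE 2.66, adjusted p = 0.0464) in Krtap13-1. Krtap1-5 and Krtap1-3, on chromosome 11 with Krtap1-4 between them, had edgeR log2 changes of 9.82 (SE 2.24, adjusted p = 0.0401) and 9.37 (SE 2.34, adjusted p = 0.0478). Krtap1-3 is named because the count is small and was chosen after its values were seen. The WT day 0 level of these 7 genes rests on few counts, 9, 22 and 4 in Krtap11-1 and at most 8 in any library for the others, so the size of each change is poorly fixed.

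The ultra-high sulfur genes had changes in the same direction without passing the test. Krtap9-3, a gene of the chromosome 11 cluster, was at a count of 0 in all WT day 0 libraries and had 1.07, 62.9 and 59.6 FPKM in Cthrc1-/- day 0, a mean at least 660-fold higher than a floor of 3 counts per library (edgeR adjusted p = 0.0606). Krtap4-1 was at 0 in WT day 0 and had 0.307, 14.6 and 10.2 FPKM, at least 179-fold higher (edgeR adjusted p = 0.0541). Krtap9-1 had 0.149, 12.2 and 6.35 FPKM and Krtap4-16 had 0.109, 11.4 and 6.89 FPKM in Cthrc1-/- day 0. In both, as in the called genes, replicate 1 was lowest.

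Krtap17-1 was the exception in the baseline. This ultra-high sulfur gene (ENSMUSG00000078252, chromosome 11, 99993234 to 99993994, minus strand), known in human hair from the cuticle, had 2.76, 3.80 and 4.59 FPKM in WT day 0, which was more than any other member there. It had 7.45, 28.4 and 29.4 FPKM in Cthrc1-/- day 0. The groups did not overlap, and the edgeR log2 change of 2.41 (SE 1.13, adjusted p = 0.190) did not pass. Krtap3-2 was next in the baseline, with 1.60, 1.27 and 2.65 FPKM in WT day 0, followed by Krtap3-3 with 0.374, 0.456 and 1.07 FPKM. In Cthrc1-/- day 0 Krtap3-2 had 1.25, 38.7 and 36.8 FPKM, so its replicate 1 lay just below the WT range. Krtap3-3 had 2.21, 68.7 and 80.4 FPKM there, above all WT libraries (edgeR adjusted p = 0.0541). Krtap3-2 and Krtap3-3 share 25.1% and 36.7% of their 100-base words, so the split of reads between them is uncertain.

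The other high glycine-tyrosine genes were not detected or barely detected in WT day 0. Krtap6-1 was at 0 there and had 0.228, 64.2 and 34.5 FPKM in Cthrc1-/- day 0, at least 413-fold higher on average. Krtap6-5 was at 0 and had 1.47, 71.5 and 38.7 FPKM, and Krtap22-2 had 0, 0.0578 and 0 FPKM against 1.09, 111 and 109 FPKM. In none of these 3 did edgeR pass, at adjusted p = 0.0979, 0.0928 and 0.0597. Krtap6-1 shares 15.6% of its 100-base words with other genes of its family.

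Over the tested members, all 43 log2 changes on day 0 were positive, between 2.41 and 15.43, against a median of -0.05 over all genes tested. The median was 10.58 in the high sulfur class, 9.89 in the ultra-high sulfur class and 11.36 in the high glycine-tyrosine class. With the 22 genes that were at 0 in WT day 0 set to their lower bound, the medians were 8.37, 6.53 and 7.48. Counting all 57 members, the FPKM of the groups did not overlap, with Cthrc1-/- higher, in 34, against 11.3% of the 34303 genes with a count. These were 14 of 17 high sulfur, 10 of 20 ultra-high sulfur, 7 of 15 high glycine-tyrosine and 3 of 5 unplaced genes.

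The 7 calls depended on single libraries. Without any 1 WT day 0 library, or without Cthrc1-/- day 0 replicate 2 or 3, no Krtap gene was called by edgeR, and without Cthrc1-/- day 0 replicate 1 the number was 25. Calls over all 14313 genes moved in the same way, from 827 to 48, 18 and 18 without WT day 0 replicate 1, 2 and 3. They were 154 and 238 without Cthrc1-/- day 0 replicate 2 and 3, and 2146 without its replicate 1. With no filter on low values edgeR called none of the 57 members and 0.802% of 34303 genes. An unadjusted p under 0.05 was then reached by 52 members and by 5550 of the 34303 genes. DESeq2 called 37 of the 42 members to which it gave an unadjusted p, and 2787 of 14207 genes.

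Hair genes that are not Krtap genes were called on day 0 as well. Of the hair shaft keratins 12 of 14 tested genes were higher in Cthrc1-/-, of the inner root sheath genes 8 of 9, of the hair matrix and precortex regulators 4 of 11, of the other hair shaft genes 3 of 4 and of the melanocyte genes 2 of 5. Of the dermal fibroblast genes 1 of 7 was lower, against 324 of all 14313 genes tested. None was called among the epidermal keratinocyte, bulge and companion layer, sebaceous gland, skeletal muscle and adipocyte genes, although the summed bulge and companion layer, muscle and adipocyte levels were separate between the groups, as given above.

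From day 0 to day 7 in WT, 4 of the 43 tested Krtap genes rose and none fell: the high sulfur genes Krtap1-3, Krtap3-1 and Krtap16-1 and the ultra-high sulfur gene Krtap4-1. No high glycine-tyrosine gene was called. Over all genes tested 13.1% were called and 6.04% as higher, so the Krtap share of 9.30% is not far from the background. The comparison shares its WT day 0 libraries with the genotype comparison on day 0.

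Krtap3-1 had 1.96, 48.5 and 12.8 FPKM in WT day 7, all above WT day 0, with an edgeR log2 change of 8.10 (SE 2.28, adjusted p = 0.0437). Krtap16-1, on chromosome 11, had 0, 0.0233 and 0 FPKM in WT day 0 and 0.430, 8.14 and 2.25 FPKM in WT day 7, a log2 change of 8.13 (SE 2.29, edgeR adjusted p = 0.0440). Krtap1-3, named after its values were seen, had 0.426, 16.8 and 3.54 FPKM in WT day 7 (edgeR log2 change 7.96, SE 2.27, adjusted p = 0.0458). Krtap4-1, 1 of 8 genes of its subfamily, had 0.414, 8.98 and 2.53 FPKM on day 7, at least 85.1-fold above the floor of its WT day 0 libraries (edgeR adjusted p = 0.0481). In all 4 genes replicate 2 was highest and replicate 1 lowest.

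High glycine-tyrosine genes differed among themselves on day 7 in WT. Krtap8-1 had 8.52, 132 and 34.1 FPKM and Krtap7-1 had 8.75, 103 and 29.3 FPKM, in both cases above all WT day 0 libraries (edgeR adjusted p = 0.0548 in Krtap8-1). Krtap6-1 had 0, 2.98 and 0.601 FPKM, Krtap6-5 had 0, 3.91 and 0.606 FPKM, and Krtap22-2 had 0.298, 6.21 and 1.89 FPKM. Krtap19-3 had 0, 0.532 and 0.102 FPKM and Krtap19-5 had 0, 0.785 and 0.109 FPKM. The Krtap6 and Krtap19 genes were thus at or near 0 in replicate 1 and low in the others.

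All 43 tested log2 changes were positive in WT over the days, with medians of 7.96 in the high sulfur, 9.40 in the ultra-high sulfur and 6.30 in the high glycine-tyrosine class, and a median near 0 over all genes tested. With genes at 0 in WT day 0 set to their lower bound the class medians were 6.86, 6.23 and 3.32. In 29 of all 57 members every WT day 7 library was above every WT day 0 library, against 16.9% of genes with a count: 11 of 17 high sulfur, 12 of 20 ultra-high sulfur, 3 of 15 high glycine-tyrosine and 3 of 5 unplaced genes. The 4 calls were lost without any 1 WT day 0 library and without WT day 7 replicate 2 or 3. Without WT day 7 replicate 1 edgeR called 4 Krtap genes, but Krtap4-1 was not among them. Calls over all genes tested went from 1880 to 688, 527 and 570 without WT day 0 replicate 1, 2 and 3. They were 1195, 947 and 2043 without WT day 7 replicate 1, 2 and 3. Over other settings the number of called members lay between 0 (no filter) and 32 (DESeq2). With no filter edgeR called 3.77% of all genes, and 31 members and 6510 of 34303 genes had an unadjusted p under 0.05. DESeq2 called 3551 of 14207 genes.

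**Figure D3:**
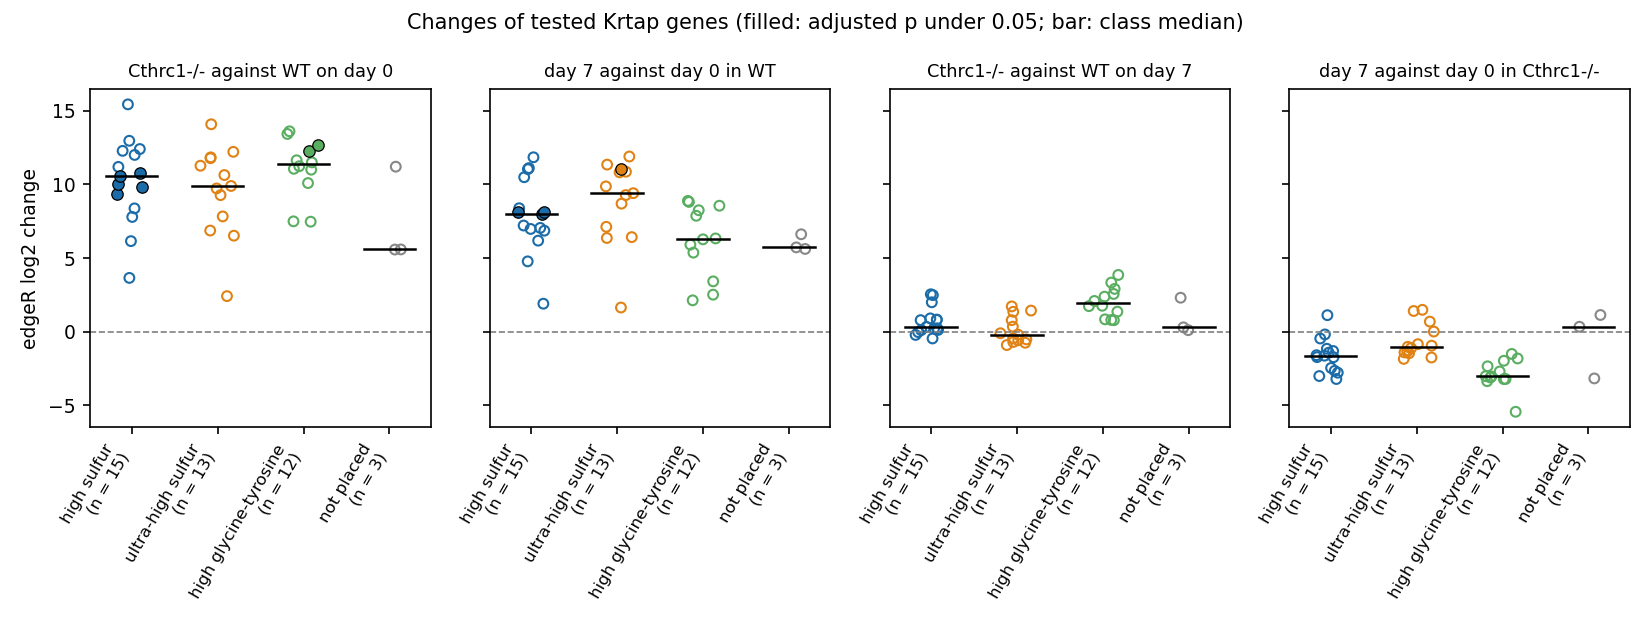
edgeR log2 change of each tested Krtap gene, by class, in 4 comparisons (1 circle per gene, filled where the adjusted p was under 0.05, horizontal bar at the class median). All 43 genes are above 0 in the first 2 panels, which share the WT day 0 libraries, and genes lie on both sides of 0 in the other 2, where none was called. Values of genes at 0 in WT day 0 are fitted and not bounds.

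Between genotypes on day 7, none of the 43 tested Krtap genes was called by edgeR, none had an unadjusted p under 0.05, and DESeq2 called none. Over all genes tested edgeR called 0.021%, and 5.46% had an unadjusted p under 0.05. In none of the 57 members were the groups separate, against 7.35% of genes with a count. Krtap8-1 had 8.52, 132 and 34.1 FPKM in WT and 37.1, 0.339 and 276 FPKM in Cthrc1-/-, so that the WT range lay inside the Cthrc1-/- range (edgeR log2 change 0.79, SE 1.75). Krtap3-1 had 21.1, 0.865 and 54.4 FPKM in Cthrc1-/-, with its lowest and highest library on either side of WT. The 3 members with the smallest p were of the Krtap19 subfamily of small high glycine-tyrosine genes. Krtap19-3 had 0, 0 and 10.2 FPKM in Cthrc1-/- day 7, Krtap19-5 had 0.183, 0.0936 and 9.59 FPKM, and Krtap19-4 had 0, 0 and 6.08 FPKM. Only replicate 3 was high in these genes, and the lowest adjusted p among them, in Krtap19-3, was 0.957 by edgeR. The class medians of the log2 change were 0.33 in the high sulfur, -0.20 in the ultra-high sulfur and 1.92 in the high glycine-tyrosine class, where 12 of 12 were positive and none was called. No gene of the other hair and skin lists was called either.

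From day 0 to day 7 in Cthrc1-/-, again no Krtap gene was called by edgeR, against 1.46% of all genes tested, and none by DESeq2. An unadjusted p under 0.05 was reached by 1 of the 43, against 18.1% of all genes tested. No member had separate groups, against 17.6% of genes with a count. The gene with the smallest p was Krtap6-3, a high glycine-tyrosine gene, with 0, 17.6 and 6.85 FPKM on day 0 and 0, 0 and 0.621 FPKM on day 7 (edgeR log2 change -5.44, SE 2.20, adjusted p = 0.246). Krtap7-1 had 29.2, 0.497 and 233 FPKM on day 7 against 10.7, 712 and 1522 FPKM on day 0, and the groups overlapped. Krtap1-5 had 4.06, 0.233 and 16.7 FPKM against 1.56, 62.4 and 56.1 FPKM.

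The log2 changes over the days in Cthrc1-/- had medians of -1.63 in the high sulfur, -1.03 in the ultra-high sulfur and -3.04 in the high glycine-tyrosine class, in which 12 of 12 were negative without a call. Within the ultra-high sulfur class the median was 1.40 over the 3 tested genes of chromosome 10 and -1.23 over the 10 of chromosome 11. Krtap10-10, within the gene Tspear on chromosome 10, had 0.0393, 0.401 and 3.65 FPKM on day 0 and 2.60, 0.112 and 8.76 FPKM on day 7. Krtap12-1 had 0, 1.32 and 5.88 FPKM on day 0 and 2.10, 0 and 10.2 FPKM on day 7. Both were named after their values were seen. Krtap10-10 shares 38.9% of its 100-base words with other genes. Krtap10-10 and Krtap12-1 lie on the same strand as Tspear, and reads of that gene in the overlap could not be told apart.

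The difference between the genotypes' changes over the days was tested as an interaction. No Krtap gene was called by edgeR, against 0.014% of all genes tested. An unadjusted p under 0.05 was reached by 24 of 43, against 15.1% of all genes tested. DESeq2 called 26 members and 681 of 14207 genes. All 43 coefficients were negative, from -13.74 to -1.63, that is, the log2 change from day 0 to day 7 was lower in Cthrc1-/- than in WT, and the smallest edgeR adjusted p was 0.194, in Krtap1-5 (log2 coefficient -9.70, SE 2.58). This term uses the same WT day 0 libraries as the other comparisons, in which most members were at or near 0.

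The make-up of the Krtap RNA is given here as levels per transcript length and without a test. In the high glycine-tyrosine and ultra-high sulfur shares WT day 0 lay apart from the other groups, whose ranges overlapped. High glycine-tyrosine genes held 3.18%, 4.27% and 6.06% of the Krtap FPKM in WT day 0, and 47.9%, 65.2% and 67.1% in Cthrc1-/- day 0. They held 50.1%, 36.9% and 37.4% in WT day 7 and 27.3%, 9.40% and 49.4% in Cthrc1-/- day 7. The highest share on day 7, 50.1%, was thus between the lowest and the middle share of Cthrc1-/- day 0. The WT day 0 shares of this class rest on only 8, 14 and 20 counts in replicates 1 to 3. The ultra-high sulfur share was 54.7%, 59.4% and 51.2% in WT day 0, where it rested on Krtap17-1. It was 19.7%, 6.05% and 3.09% in Cthrc1-/- day 0, 14.6%, 18.7% and 19.6% in WT day 7 and 24.3%, 22.3% and 12% in Cthrc1-/- day 7. The high sulfur share lay between 28.4% and 45.5% in 11 of the 12 libraries and was 63.6% in Cthrc1-/- day 7 replicate 2, in which the Krtap sum was 11.2 FPKM.

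**Figure D4:**
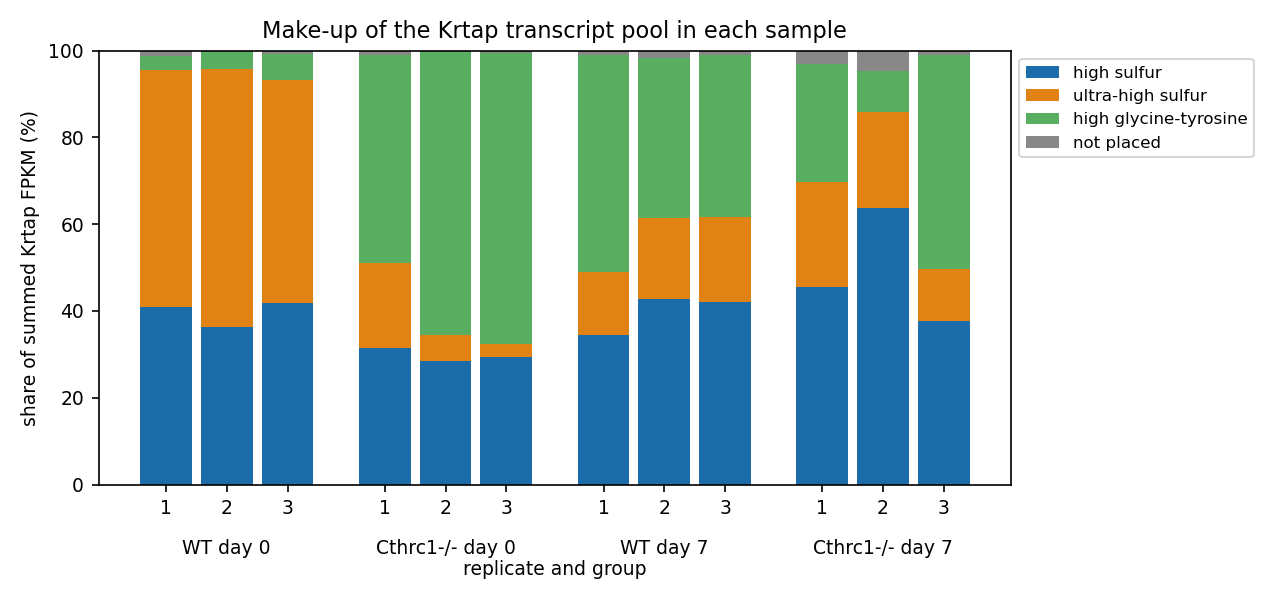
Share (%) of the summed Krtap FPKM held by each class in each of the 12 libraries, 1 bar per library. Ultra-high sulfur genes hold the largest share in the 3 WT day 0 bars, and high glycine-tyrosine genes hold 47.9% to 67.1% in the Cthrc1-/- day 0 bars.

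Put as a ratio, high glycine-tyrosine FPKM per FPKM of both sulfur classes was 0.0333, 0.0446 and 0.0651 in WT day 0 and 0.936, 1.89 and 2.07 in Cthrc1-/- day 0. It was 1.02, 0.600 and 0.606 in WT day 7 and 0.391, 0.109 and 0.994 in Cthrc1-/- day 7. The ranges of Cthrc1-/- day 0 and of both day 7 groups overlapped. Krtap7-1 and Krtap8-1 held 79.1% or more of the high glycine-tyrosine FPKM in every library but WT day 0 replicate 1, where both were at 0. Without these 2 genes the ratio was 0.0333, 0.00933 and 0.0124 in WT day 0, 0.137, 0.355 and 0.175 in Cthrc1-/- day 0, 0.0174, 0.0420 and 0.0430 in WT day 7, and 0.00936, 0.0222 and 0.166 in Cthrc1-/- day 7. On this measure the Cthrc1-/- day 0 libraries lay above all 3 WT day 7 libraries, and the WT day 0 and WT day 7 ranges overlapped. The whole class, with these 2 genes, had only 8, 14 and 20 counts in WT day 0 replicates 1 to 3. The WT day 0 ratios, and their overlap with WT day 7, are therefore poorly fixed. Cthrc1-/- day 7 replicate 3 lay within the Cthrc1-/- day 0 range. This split was chosen after the values were seen.

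Subfamilies within a class did not follow one profile. The 4 Krtap6 genes summed to 1.83, 177 and 88.2 FPKM in Cthrc1-/- day 0, 0, 7.77 and 1.54 FPKM in WT day 7 and 0.304, 0.119 and 29.1 FPKM in Cthrc1-/- day 7. The 6 Krtap19 genes summed to 0.513, 42.7 and 84.2 FPKM in Cthrc1-/- day 0, 0, 2.39 and 0.664 FPKM in WT day 7 and 0.183, 0.0936 and 33.0 FPKM in Cthrc1-/- day 7. Krtap6 was therefore higher in replicate 2 than in replicate 3 of Cthrc1-/- day 0, and Krtap19 was higher in replicate 3. All 15 high glycine-tyrosine genes peaked in 1 of these 2 libraries, 7 in replicate 2 (Krtap6, 20, 21 and 22) and 8 in replicate 3 (Krtap7, 8 and 19).

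Among the ultra-high sulfur genes, the 8 Krtap4 genes of chromosome 11 summed to 0.777, 65.6 and 42.7 FPKM in Cthrc1-/- day 0, 1.9, 54.2 and 14.5 FPKM in WT day 7 and 19.6, 0.276 and 29.4 FPKM in Cthrc1-/- day 7. The 5 Krtap5 genes of chromosome 7, known in human hair from the cuticle, summed to 0.0145, 0.209 and 4.07 FPKM in Cthrc1-/- day 0, 0.135, 2.04 and 0.273 FPKM in WT day 7 and 2.36, 0 and 3.72 FPKM in Cthrc1-/- day 7. The 2 Krtap10 genes of chromosome 10, also cuticle genes in human hair, summed to 0.0393, 0.913 and 6.66 FPKM in Cthrc1-/- day 0, 0.393, 5.93 and 1.70 FPKM in WT day 7 and 4.54, 0.112 and 17.3 FPKM in Cthrc1-/- day 7. In Cthrc1-/- day 0 the level in replicate 3 was 0.651 times that in replicate 2 for Krtap4, 19.5 times for Krtap5, 7.29 times for Krtap10 and 4.46 times for Krtap12. These 2 libraries of one group thus differed in which ultra-high sulfur subfamilies they held.

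The unplaced subfamilies differed from each other as well. The 2 Krtap28 genes of chromosome 1 summed to 0, 0.700 and 7.07 FPKM in Cthrc1-/- day 0, 0.260, 10.6 and 1.44 FPKM in WT day 7 and 6.71, 0.197 and 7.32 FPKM in Cthrc1-/- day 7. Krtap28-10 peaked in WT day 7 replicate 2, at 7.26 FPKM, and Krtap28-13 in Cthrc1-/- day 0 replicate 3, at 3.46 FPKM. The 2 Krtap31 genes of chromosome 11 summed to 0.454, 7.68 and 12.9 FPKM in Cthrc1-/- day 0, 0, 0.443 and 0.0551 FPKM in WT day 7 and 0.0980, 0 and 2.39 FPKM in Cthrc1-/- day 7. Krtap31-1 and Krtap31-2 share 29.9% and 31.2% of their 100-base words. Krtap29-1 stayed at or below 1.29 FPKM in every library.

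**Figure D5:**
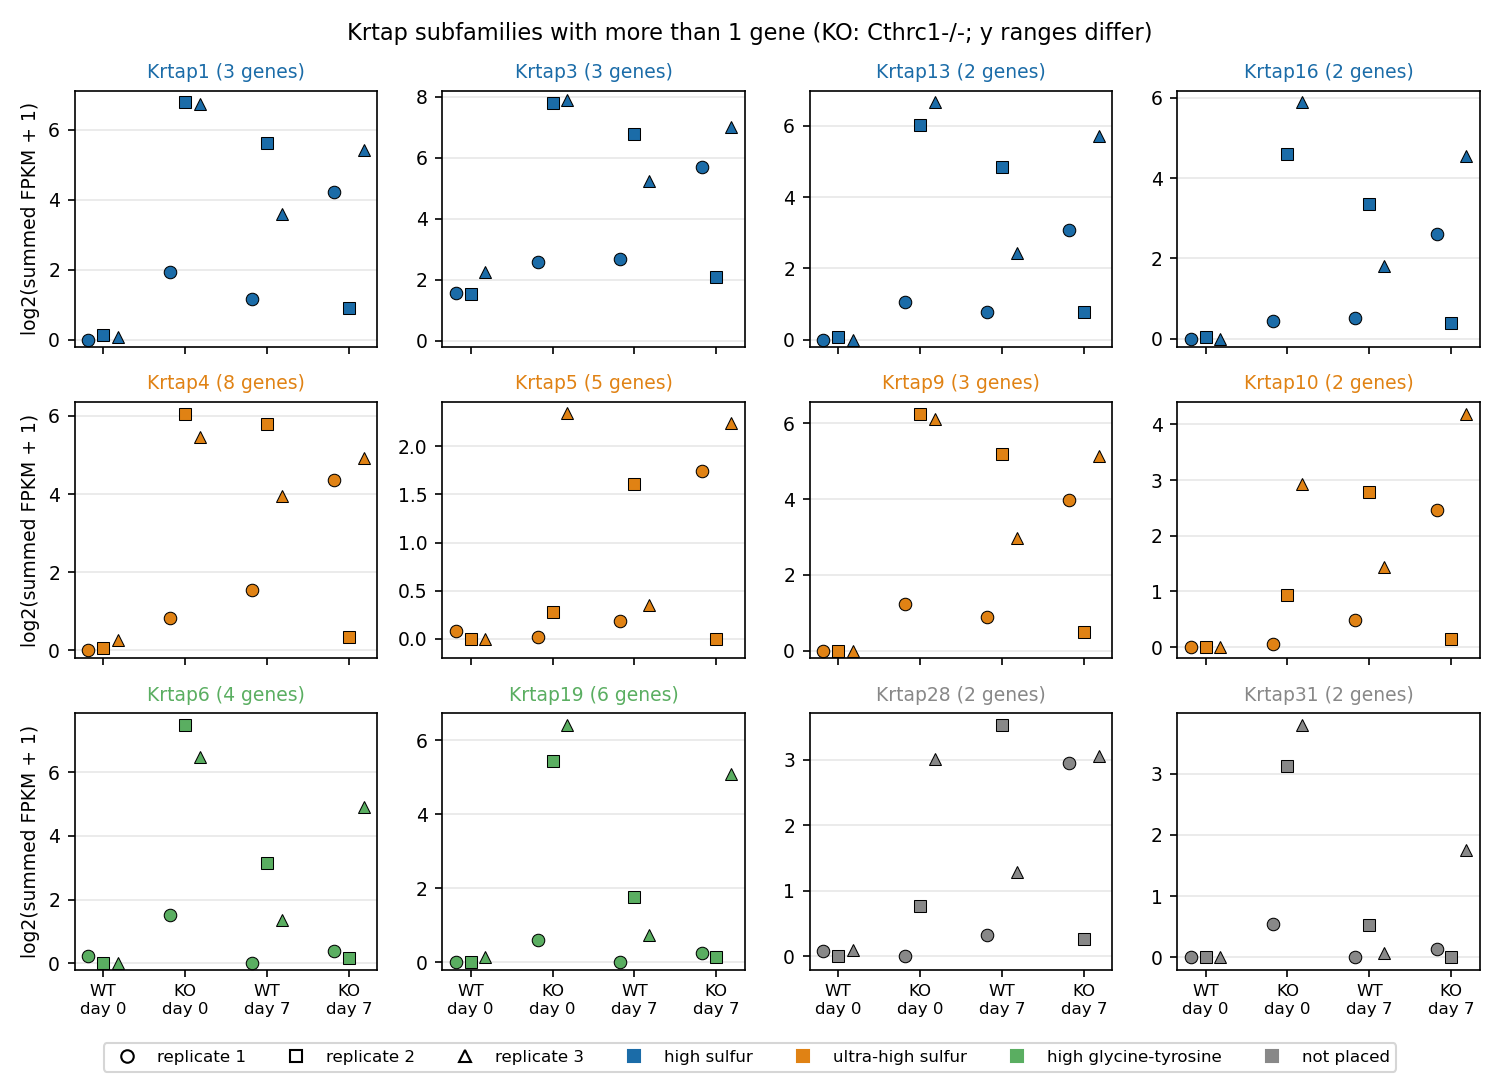
Summed level, as log2(FPKM + 1), of the 12 Krtap subfamilies with more than 1 gene in each of the 12 libraries (title colour shows the class, symbol shape the replicate number). Krtap6 and Krtap19 are near 0 in replicate 1 of both day 7 groups, and Krtap5, Krtap10 and Krtap28 are low in replicate 2 of Cthrc1-/- day 0, where Krtap4 and Krtap9 are high.

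High sulfur subfamilies differed too. The 3 Krtap3 genes summed to 5.00, 219 and 235 FPKM in Cthrc1-/- day 0, 5.45, 107 and 37.0 FPKM in WT day 7 and 50.3, 3.24 and 128 FPKM in Cthrc1-/- day 7. Krtap15, on chromosome 16, had 0.918, 51.9 and 181 FPKM in Cthrc1-/- day 0, 0, 6.84 and 1.01 FPKM in WT day 7 and 0.422, 0.0924 and 45.1 FPKM in Cthrc1-/- day 7. Krtap16-1 had 0.0276, 2.06 and 6.17 FPKM in Cthrc1-/- day 0 and 5.09, 0.304 and 13.8 FPKM in Cthrc1-/- day 7, and peaked in replicate 3 of the latter. Krtap15 overlaps Krtap14 on the opposite strand. Krtap13 was at or below 0.0296 FPKM in every library. In all, 13 members share at least 10% of their 100-base words with another gene and 6 overlap another annotated gene, which leaves their own levels uncertain.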

How the data were processed

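Deposited counts and FPKM of 12 dermis libraries were used. The deposited FPKM values were scaled by the authors to transcript length and depth, and the deposited counts are whole numbers per gene. Per the submitters' processing notes, cutadapt 1.9, HISAT2 2.0.4, UMI-tools, StringTie 1.3.4d, DESeq2 and edgeR were used on GRCm38, in no stated order. The annotation behind the counts, and whether they were collapsed on molecular identifiers, are not given in the sources used here. Per the labels' protocols, libraries were poly(A)-selected and marked strand with dUTP. Whether counting used strand is not given in the sources used here. An FPKM of 0.0001 at a count of 0 was read as 0. Unused per-sample columns numbered 0.

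Groups and replicate numbers came from the sample titles. Gene IDs were matched to GENCODE M21, which named 55141 of 55401, and its coding sequences gave codon shares. Promoters came from RefSeq. The members, classes, marker lists and tests were chosen with earlier results of these data known.

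Counts were tested with edgeR 4.0.16 (quasi-likelihood, TMM, two-sided, R 4.3.3) in 1 fit over 12 libraries with a mean per group, on genes whose FPKM averaged at least 1, with Benjamini-Hochberg adjustment over 14313 genes. The SE is the absolute log2 change over the square root of F. Alternatives were DESeq2 1.42.0, limma 3.58.1 on log2(FPKM + 1) and log2(FPKM + 0.1), other filters and scaling, only the groups compared, counts divided by 4, a replicate block and each replicate left out. On simulated counts for the day 0 comparison with 14313 genes, edgeR recovered 92% of genes changed by a log2 of 2 and 100% of those changed by 3, with 5.88% false calls, and DESeq2 recovered 93% and 100% with 17.5% false calls. The simulation gave every gene the same spread between replicates and held no uneven library. It therefore cannot tell how many Krtap changes either method would find or wrongly call. Each p-value sets a difference against the spread between the 3 libraries within groups. In the edgeR fit this spread was pooled per gene over all groups fitted and drawn towards that of other genes.

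Genes were named by rule: in each class the 5 members with the highest mean FPKM and the highest in WT day 0, in each comparison and class the 2 largest called rises and falls, and the 3 smallest p where none was called. Others are marked as named after their values were seen, or are given to show a subfamily or the filter. The marker lists were hair shaft keratins, inner root sheath, hair matrix and precortex regulators, other hair shaft genes, epidermal keratinocytes, bulge and companion layer, dermal fibroblasts, sebaceous gland, skeletal muscle, adipocytes and melanocytes. In WT over the days, the called genes were 9 of 14 hair shaft keratins, 8 of 9 inner root sheath genes, 5 of 11 regulators, 3 of 4 other hair shaft genes and 4 of 5 melanocyte genes, all higher, and 3 of 3 adipocyte, 3 of 4 sebaceous gland and 1 of 4 bulge and companion layer genes, all lower. Of all 14313 genes tested in WT over the days, 864 were called as higher and 1016 as lower. No gene of any list was called in Cthrc1-/- over the days.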

Additional observations from a re-analysis of the deposited data

How the results depend on the processing

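The number of Krtap genes called on day 0 between genotypes, 7 in the reported fit, was 0 with no filter, with edgeR's own filter, with limma on log2(FPKM + 1) and with only the groups compared, and 37 with DESeq2. Leaving out 1 replicate gave 0 to 25, with 18 to 2146 calls over all 14313 genes. The number called in WT over the days, 4, was 0 with no filter, with limma on log2(FPKM + 1) and with counts divided by 4, 1 with edgeR's own filter and with limma on log2(FPKM + 0.1), 11 without TMM, 13 with only the groups compared and 32 with DESeq2, and 0 to 4 with 1 replicate left out. For the interaction DESeq2 called 26 against 0, and 1 replicate left out gave 0. The calls over all genes moved too. DESeq2 called 2787 of 14207 genes on day 0 between genotypes, 3551 in WT over the days and 681 for the interaction. With only the groups compared edgeR called 19 of 14313 genes on day 0 between genotypes and 2102 in WT over the days. Between genotypes on day 7 and in Cthrc1-/- over the days the number was 0 in every fit run. The cause of these differences was not tested. Without TMM the median log2 change of all genes was 0.06 on day 0 between genotypes (-0.05 with TMM), 0.20 in WT over the days (near 0 with TMM) and 0.16 in Cthrc1-/- over the days (-0.01 with TMM). Of all genes called, 523 of 732 were then higher on day 0 (503 of 827 with TMM), 1669 of 2212 in WT over the days (864 of 1880) and 649 of 747 in Cthrc1-/- over the days (123 of 209). Over 125 results for single named genes and 2000 alternative values, 1843 kept direction and side of the threshold, 67 newly passed, 90 no longer passed and 0 reversed. Most of these results were not called in the reported fit, so the 1843 are mainly uncalled genes that stayed uncalled. The called genes were less stable. Each call was kept in 2 to 5 of 9 other settings and in at most 1 of 6 fits with a replicate left out.

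The replicate numbers were not taken as pairs: of 18 same-numbered pairs across groups 5 correlated above 0.1 in their deviations from the group means (r from -0.18 to 0.48, across genes), against 4 of 36 differently numbered pairs. All 3 same-numbered pairs exceeded 0.1 between Cthrc1-/- day 0 and WT day 7 (0.21, 0.10 and 0.19), groups that were not compared, and in no compared groups did all 3. With the replicate block edgeR called 6 Krtap genes on day 0 between genotypes and 0 in each other comparison, among them WT over the days.

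From counts instead of FPKM the mean high sulfur share was 45.5% in WT day 0 (39.7% by FPKM), 37.9% in Cthrc1-/- day 0 (29.8%) and 45.9% in WT day 7 (39.7%), the ultra-high sulfur share 50.1% in WT day 0 (55.1%) and 20.6% in WT day 7 (17.6%), and the high glycine-tyrosine share 32.0% in WT day 7. With classes set by codon composition, chosen after seeing the data because no protein table was at hand, the high sulfur share was 23% in Cthrc1-/- day 0 and 34.9% in WT day 7. The planned version from protein sequences was not run.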
